A study of Arabidopsis thaliana with 9 samples.

Results

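The transcripts of 10 genes that build seed oil were followed in Arabidopsis thaliana siliques, the seed pods with the developing seeds inside. The genes were chosen by identifier from 33602 genes in the deposited table, and all 10 passed the level filter of a mean of at least 1 TPM (a length-corrected share of all transcripts, scaled to 1000000 per library). They are GPAT9, LPAT2, DGAT1, PDAT1 and ROD1, which assemble the oil, FAE1, KCR1 and PAS2, which lengthen fatty acids, and FAD2 and FAD3, which add double bonds to them. Siliques were taken 12 days past anthesis from 3 kinds of greenhouse-grown plant, with 3 libraries each that the labels call biological replicates. The scl15 plants lack a functional SCL15 gene per the labels, and SCL15 encodes a GRAS family transcription regulator. The Napin:SCL15 plants overexpress SCL15 in seeds per the labels, and napin is a seed storage protein. The wild type (WT) is Columbia, the background of both lines. How many plants or independent lines went into a library, and where the knockout gene is disrupted, is not stated in the labels. The p-values thus cover only the spread among the libraries at hand.

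Oil is stored in Arabidopsis seeds as triacylglycerol, a glycerol backbone carrying fatty acids at each position. The acyl groups are added in turn at the endoplasmic reticulum, and many fatty acids first pass through the membrane lipid phosphatidylcholine, where they are desaturated. Oleic acid made in the plastid can instead be lengthened by a cycle of condensation, reduction, dehydration and reduction, which gives the very long chain fatty acids typical of crucifer seeds.

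The lines differed in the targeted gene and in the makeup of the libraries. SCL15 (AT4G36710) averaged 5.84 ± 0.886 TPM in scl15 and 550 ± 21.8 TPM in Napin:SCL15, against 13.8 ± 2.78 TPM in WT (SD, n = 3 each). TPM keep no sequencing depth, and between 19679 and 21855 genes were above 0 in a library. The summed transcripts of 8 embryo markers (storage proteins and oleosins) held 31.3% to 31.6% of all TPM in scl15, 40.9% to 45.2% in Napin:SCL15 and 29.8% to 32.0% in WT. These markers did not move alike. CRC averaged 75339 TPM in scl15, 140357 TPM in Napin:SCL15 and 84494 TPM in WT, and SESA1 21740, 23839 and 22254 TPM. SESA2 averaged 53690 TPM in scl15, 40345 TPM in Napin:SCL15 and 40268 TPM in WT. All but SESA2 had their highest mean in Napin:SCL15. The median log2 fold change over the 16555 genes tested was 0.10 in scl15 over WT, -0.28 in Napin:SCL15 over WT and -0.38 in Napin:SCL15 over scl15. Fold changes are therefore also given after the median of all genes is subtracted, and with a scaling that sets these medians close to 0 (median-ratio scaling). Replicate 3 of scl15 and replicate 3 of Napin:SCL15 had 353 and 334 genes between 0 and 0.1 TPM, against 541 to 860 in the other libraries, so values without both of these libraries are given where they change a call.

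The 300 bases upstream of each gene's annotated start were searched on both strands for 4 short motifs known from seed promoters. These are the RY motif CATGCA, the abscisic acid response core ACGTG, the AW box of WRI1 targets and the box CCAAT. The RY motif was found upstream of 4 of the 10 genes (LPAT2, ROD1, FAE1 and KCR1), against 10.3% of 27443 such windows in the genome. ACGTG was found upstream of FAD2 and FAD3, against 25.6% of all windows. CCAAT was found upstream of 6 of the 10, against 51.9% of all windows, and the AW box upstream of 0 of the 10, against 11% of all windows. Part of another annotated gene lies in the windows of KCR1 (AT1G67720) and PAS2 (AT5G10490). The motifs do not share letters in the windows shown here, and a match is a description of the letters, not of binding. The windows of FAE1 with its 2 RY motifs, and of FAD3, DGAT1 and ROD1, which lay farthest from the median of all genes between the lines, read 5′ to 3′ on the gene's strand as follows, with motif letters in capitals (RefSeq sequence, TAIR10.1). The DGAT1 window holds none of the 4 motifs.

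FAE1: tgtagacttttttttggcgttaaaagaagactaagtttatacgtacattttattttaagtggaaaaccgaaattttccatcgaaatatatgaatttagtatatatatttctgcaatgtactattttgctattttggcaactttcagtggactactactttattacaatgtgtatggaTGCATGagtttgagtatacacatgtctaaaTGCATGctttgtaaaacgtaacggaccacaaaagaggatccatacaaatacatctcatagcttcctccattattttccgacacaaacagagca
ROD1: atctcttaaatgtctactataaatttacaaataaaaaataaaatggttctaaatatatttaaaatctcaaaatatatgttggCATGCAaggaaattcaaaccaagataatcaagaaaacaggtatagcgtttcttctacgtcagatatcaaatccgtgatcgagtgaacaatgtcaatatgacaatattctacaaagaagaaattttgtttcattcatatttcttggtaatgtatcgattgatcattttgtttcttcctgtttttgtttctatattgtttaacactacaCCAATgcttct
FAD3: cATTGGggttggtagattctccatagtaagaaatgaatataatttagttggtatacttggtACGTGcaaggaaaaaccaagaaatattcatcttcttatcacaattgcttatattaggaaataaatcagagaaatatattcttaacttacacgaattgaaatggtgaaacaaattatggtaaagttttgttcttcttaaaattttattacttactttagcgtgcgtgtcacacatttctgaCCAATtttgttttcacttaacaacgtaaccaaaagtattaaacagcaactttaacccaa
DGAT1: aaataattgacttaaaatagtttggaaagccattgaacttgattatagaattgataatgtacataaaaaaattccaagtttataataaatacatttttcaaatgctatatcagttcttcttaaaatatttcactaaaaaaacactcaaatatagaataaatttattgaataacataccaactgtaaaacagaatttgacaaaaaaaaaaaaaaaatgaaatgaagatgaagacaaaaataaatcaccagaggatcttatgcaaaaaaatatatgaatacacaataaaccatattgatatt

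The FAE1 window is chr4:16493905-16494204 on the plus strand, and its RY motifs, both written there as the reverse complement TGCATG, begin 123 and 93 bases upstream of the gene. The ROD1 window is chr3:5350514-5350813 on the plus strand, with CATGCA at 218 bases and CCAAT at 11 bases upstream. The FAD3 window is chr2:12785191-12785490, read from the minus strand, with ACGTG at 239 bases and CCAAT at 299 and 59 bases upstream. The DGAT1 window is chr2:8425817-8426116 on the plus strand.

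The levels of the 10 genes spanned a wide range in each group. In WT the mean TPM fell in the order FAD2, FAD3, FAE1, KCR1, PAS2, ROD1, LPAT2, GPAT9, DGAT1 and PDAT1. FAD2 ranked 49 in scl15, 64 in Napin:SCL15 and 53 in WT among all genes by mean TPM, and FAD3 ranked 262 in scl15, 138 in Napin:SCL15 and 173 in WT. At the low end PDAT1 ranked 7890 in scl15, 9371 in Napin:SCL15 and 7770 in WT. Neighbours in the order did not overlap in WT, except that the ranges of PAS2 and ROD1 and of ROD1 and LPAT2 did. In Napin:SCL15 the lowest DGAT1 library (17.9 TPM) lay above the highest GPAT9 library (15.8 TPM), whereas in scl15 and in WT every GPAT9 library lay above every DGAT1 library. The 10 transcripts summed to 2264, 1996 and 2557 TPM in scl15, to 2140, 1879 and 1962 TPM in Napin:SCL15 and to 2517, 2127 and 2527 TPM in WT, and these ranges overlapped.

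**Figure D1:**
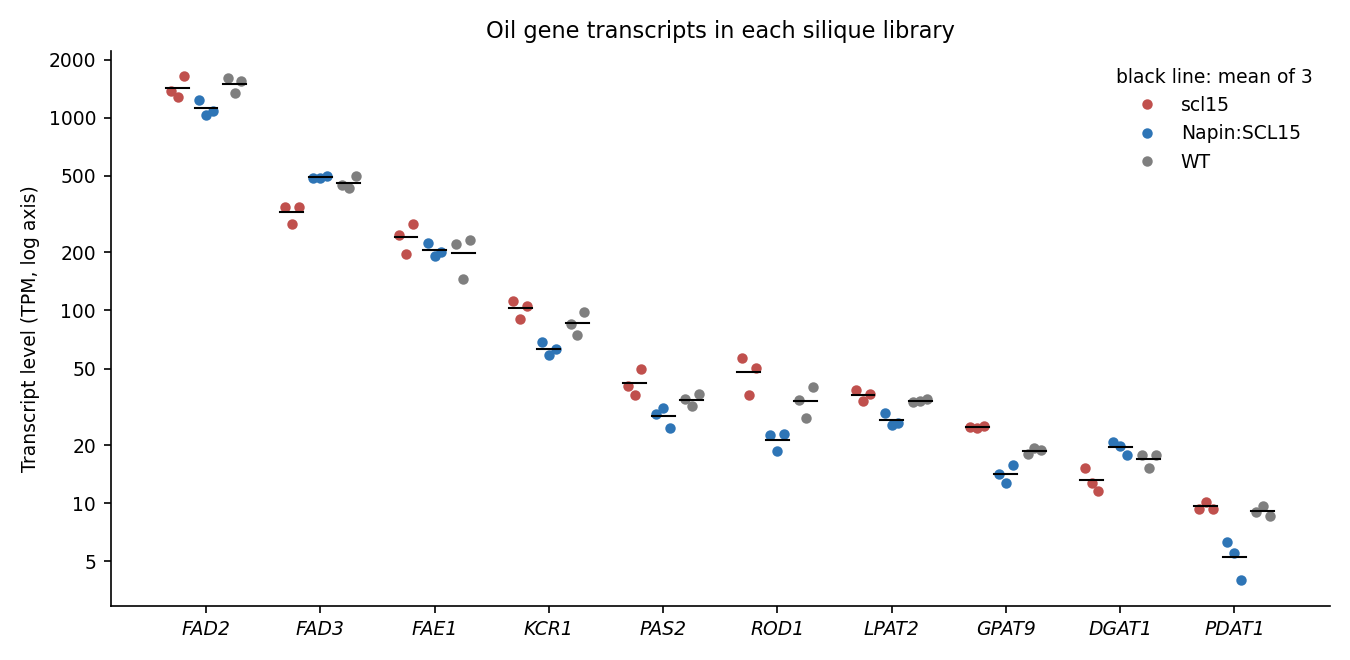
TPM of the 10 oil genes (log axis) in each of the 3 scl15, 3 Napin:SCL15 and 3 WT libraries; points are libraries and black lines are means of 3. FAD2 stands highest in every library, from 1031 to 1645 TPM, and PDAT1 is lowest in every library, from 3.98 to 10.2 TPM.

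Relative to WT, scl15 siliques had more GPAT9 and less FAD3 transcript, and the other 8 genes did not pass the test. Thus 1 of 10 genes was called higher, against 9.18% of all genes tested, and 1 of 10 lower, against 6.31%. Called means an adjusted p under 0.05 in limma with Benjamini-Hochberg adjustment over all 16555 genes. Relative to WT, Napin:SCL15 siliques had less PDAT1, ROD1, KCR1, FAD2, GPAT9 and LPAT2, so 6 of 10 were called lower, against 23.4% of all genes. In that comparison 0 of 10 were called higher, against 1.68% of all genes, and 0 of 10 were higher at an unadjusted p under 0.05 in limma. Relative to scl15, Napin:SCL15 siliques had more DGAT1 and FAD3 and less of GPAT9, LPAT2, PDAT1, ROD1, KCR1 and PAS2, so 2 of 10 were called higher, against 6.16% of all genes, and 6 of 10 lower, against 43.1%. With median-ratio scaling, the counts in scl15 over WT were 0 of 10 higher, against 5.99% of all genes (2 of 10 at an unadjusted p under 0.05 in limma), and 2 of 10 lower, DGAT1 and FAD3, against 7.8%. The same scaling gave 2 of 10 higher in Napin:SCL15 over WT, DGAT1 and FAD3, against 3.26% of all genes, and 0 of 10 lower, against 3.59% (1 of 10 at an unadjusted p under 0.05 in limma). For Napin:SCL15 over scl15 it gave 2 of 10 higher, against 13.3% of all genes, and 2 of 10 lower, GPAT9 and ROD1, against 14.5%. Over the 10 genes the median log2 fold change was 0.17 in scl15 over WT, -0.35 in Napin:SCL15 over WT and -0.49 in Napin:SCL15 over scl15, against medians over all genes of 0.10, -0.28 and -0.38. The comparisons of both lines share the WT libraries.

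**Figure D2:**
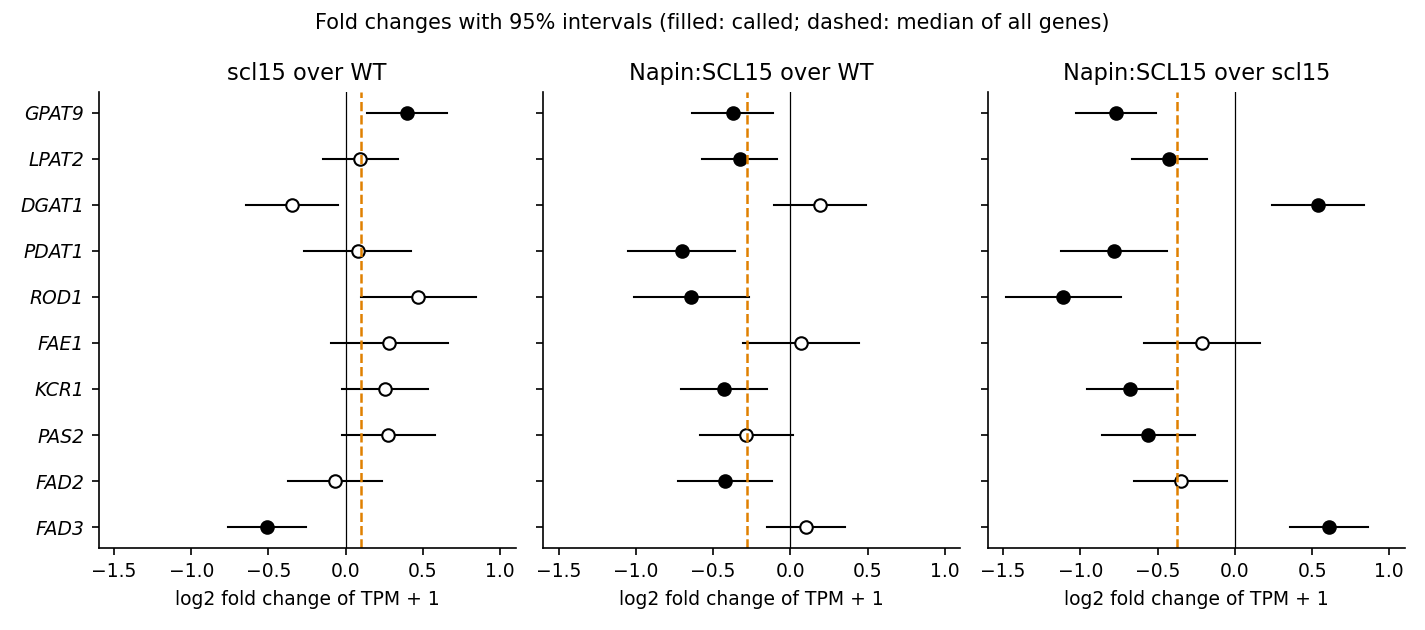
Log2 fold changes of TPM + 1 with 95% intervals for the 10 genes (rows) in scl15 over WT, Napin:SCL15 over WT and Napin:SCL15 over scl15; filled points were called and the dashed line is the median of all genes. FAD3 lies at -0.51 in scl15 over WT and at 0.61 in Napin:SCL15 over scl15, and ROD1 lies at -1.11 in Napin:SCL15 over scl15.

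GPAT9 (AT5G60620, chromosome 5, 24367142 to 24369790, plus strand, 12 exons) encodes the acyltransferase that adds the first fatty acid to glycerol 3-phosphate. Its transcript stood at 25.003, 24.6 and 25.3 TPM in scl15, at 14.2, 12.8 and 15.8 TPM in Napin:SCL15 and at 18.1, 19.2 and 18.8 TPM in WT. Every scl15 library was above every WT library, and every Napin:SCL15 library was below them all. The log2 fold change was 0.40 in scl15 over WT (SE 0.12, adjusted p = 0.0396) and -0.37 in Napin:SCL15 over WT (SE 0.12, adjusted p = 0.0372). After the median of all genes was subtracted these were 0.30 and -0.09. The call in scl15 was lost with median-ratio scaling (0.30, adjusted p = 0.1077), without both replicate 3 libraries (adjusted p = 0.0706), and without any 1 library of scl15 or WT or Napin:SCL15 replicate 1 (adjusted p 0.0560 to 0.1295). The Napin:SCL15 call ended with that scaling (-0.06, adjusted p = 0.8152) and without scl15 replicate 1, Napin:SCL15 replicate 1 or 2, or any 1 WT library (adjusted p 0.0535 to 0.1401). Between the lines GPAT9 fell by 0.77 in Napin:SCL15 (SE 0.12, adjusted p = 1.8e-04), and by 0.36 with median-ratio scaling (adjusted p = 0.0298). The last 141 bases of GPAT9 overlap AT5G60630 on the opposite strand, which averaged 12.8 ± 3.69 TPM in scl15, 2.22 ± 1.12 TPM in Napin:SCL15 and 3.71 ± 0.479 TPM in WT (SD, n = 3 each). The use of strand in the counting is not given in the sources used here, so reads of these genes cannot be told apart there.

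LPAT2 (AT3G57650, chromosome 3, 21349383 to 21353193, plus strand, 11 exons), the endoplasmic reticulum acyltransferase that adds the next fatty acid, stood at 38.8, 33.8 and 36.9 TPM in scl15, at 29.4, 25.3 and 26.2 TPM in Napin:SCL15 and at 33.4, 34.1 and 34.7 TPM in WT. The scl15 and WT ranges overlapped, and the Napin:SCL15 libraries were the lowest. LPAT2 had a log2 fold change of 0.09 in scl15 over WT (adjusted p = 0.6443, 95% interval -0.15 to 0.34). The value in Napin:SCL15 over WT was -0.33 (SE 0.11, adjusted p = 0.0493), which lay 0.05 below the median of all genes. That call ended without any 1 of the 9 libraries (adjusted p 0.0516 to 0.1493), without both replicate 3 libraries (adjusted p = 0.0875) and with median-ratio scaling (-0.01, adjusted p = 0.9773). Between the lines LPAT2 fell by 0.42 in Napin:SCL15 (adjusted p = 0.0078), and the value was 0.00 with median-ratio scaling (adjusted p = 0.9964).

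DGAT1 (AT2G19450, chromosome 2, 8426117 to 8429853, plus strand, 16 exons) encodes the enzyme that completes triacylglycerol with an acyl group from acyl-CoA. It stood at 15.3, 12.7 and 11.5 TPM in scl15, at 20.9, 19.8 and 17.9 TPM in Napin:SCL15 and at 17.9, 15.2 and 17.9 TPM in WT. All scl15 libraries were below all Napin:SCL15 libraries, and WT overlapped with both lines. DGAT1 had a log2 fold change of -0.35 in scl15 over WT (SE 0.14, adjusted p = 0.1126), and with median-ratio scaling -0.44 (adjusted p = 0.0463). The value in Napin:SCL15 over WT was 0.19 (SE 0.14, adjusted p = 0.3195), and with median-ratio scaling 0.51 (adjusted p = 0.0417). Between the lines DGAT1 rose by 0.54 in Napin:SCL15 (SE 0.14, adjusted p = 0.0059), which was 0.92 above the median of all genes, and by 0.95 with median-ratio scaling (adjusted p = 1.6e-04).

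PDAT1 (AT5G13640, chromosome 5, 4392937 to 4397541, plus strand, 6 exons) encodes the acyltransferase that makes triacylglycerol with an acyl group taken from phosphatidylcholine. It stood at 9.39, 10.2 and 9.38 TPM in scl15, at 6.33, 5.49 and 3.98 TPM in Napin:SCL15 and at 9.02, 9.73 and 8.55 TPM in WT. The scl15 and WT libraries overlapped, and the Napin:SCL15 libraries were below both. PDAT1 had a log2 fold change of 0.08 in scl15 over WT (adjusted p = 0.8000, 95% interval -0.27 to 0.42). PDAT1 fell by 0.70 in Napin:SCL15 over WT (SE 0.16, adjusted p = 0.0078), which was 0.42 below the median of all genes. With median-ratio scaling the value was -0.42 and no longer passed (adjusted p = 0.1646). Between the lines it fell by 0.78 in Napin:SCL15 (adjusted p = 0.0014), and the value was -0.40 with median-ratio scaling (adjusted p = 0.0900).

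ROD1 (AT3G15820, chromosome 3, 5350814 to 5353752, plus strand, 3 exons) encodes the cholinephosphotransferase that exchanges head groups between phosphatidylcholine and diacylglycerol and so brings desaturated fatty acids into oil. It stood at 56.7, 36.4 and 50.4 TPM in scl15, at 22.6, 18.7 and 22.8 TPM in Napin:SCL15 and at 34.5, 27.6 and 40.1 TPM in WT. The second library was the lowest in each group, 1 scl15 library lay within the WT range, and all Napin:SCL15 libraries lay below it. ROD1 had a log2 fold change of 0.47 in scl15 over WT (SE 0.17, adjusted p = 0.0868), and it passed without scl15 replicate 2 (adjusted p = 0.0166). ROD1 fell by 0.64 in Napin:SCL15 over WT (SE 0.17, adjusted p = 0.0177), a call that ended without Napin:SCL15 replicate 2 or WT replicate 1 or 3 (adjusted p 0.0547 to 0.0760) and with median-ratio scaling (-0.32, adjusted p = 0.2875). Between the lines ROD1 fell by 1.11 in Napin:SCL15 (SE 0.17, adjusted p = 1.8e-04), the largest change of the 10 genes in TPM as deposited, which was 0.73 below the median of all genes. With median-ratio scaling it fell by 0.69 (adjusted p = 0.0064).

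FAE1 (AT4G34520, chromosome 4, 16494205 to 16495842, plus strand, a single exon) encodes the seed condensing enzyme that starts each round of elongation of oleoyl-CoA. It stood at 245, 196 and 281 TPM in scl15, at 224, 191 and 201 TPM in Napin:SCL15 and at 222, 145 and 231 TPM in WT. The ranges of all 3 groups overlapped, and the second library was the lowest of each group. The log2 fold change was 0.28 in scl15 over WT (adjusted p = 0.3250, 95% interval -0.09 to 0.66) and 0.07 in Napin:SCL15 over WT (adjusted p = 0.7922, 95% interval -0.31 to 0.44). Between the lines it was -0.21 in Napin:SCL15 over scl15 (adjusted p = 0.3231), and with median-ratio scaling 0.22 (adjusted p = 0.4057). FAE1 passed in no comparison under any of 19 alternatives.

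KCR1 (AT1G67730, chromosome 1, 25391338 to 25393889, plus strand, 3 exons) encodes the ketoacyl-CoA reductase of the elongation cycle. It stood at 112, 89.9 and 106 TPM in scl15, at 68.7, 58.5 and 63.0 TPM in Napin:SCL15 and at 85.2, 74.9 and 97.9 TPM in WT. The scl15 and WT ranges overlapped, and the Napin:SCL15 libraries lay below both. KCR1 had a log2 fold change of 0.25 in scl15 over WT (SE 0.13, adjusted p = 0.2283). KCR1 fell by 0.43 in Napin:SCL15 over WT (SE 0.13, adjusted p = 0.0288), which was 0.15 below the median of all genes. That call ended without Napin:SCL15 replicate 2 or 3 or WT replicate 1 or 3 (adjusted p 0.0515 to 0.1158), without both replicate 3 libraries (adjusted p = 0.0507) and with median-ratio scaling (-0.10, adjusted p = 0.7139). Between the lines KCR1 fell by 0.68 in Napin:SCL15 (adjusted p = 8.4e-04), and the value was -0.25 with median-ratio scaling (adjusted p = 0.1645).

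PAS2 (AT5G10480, chromosome 5, 3297804 to 3300165, minus strand, 9 or 10 exons) encodes the dehydratase of the same cycle. It stood at 40.7, 36.2 and 49.9 TPM in scl15, at 29.0, 31.2 and 24.6 TPM in Napin:SCL15 and at 34.6, 32.1 and 36.9 TPM in WT. The Napin:SCL15 libraries were the lowest, and the scl15 and WT libraries overlapped. The log2 fold change was 0.27 in scl15 over WT (adjusted p = 0.2213) and -0.28 in Napin:SCL15 over WT (adjusted p = 0.1452), where it turned to 0.04 with median-ratio scaling. Between the lines PAS2 fell by 0.56 in Napin:SCL15 (SE 0.14, adjusted p = 0.0050), and the value was -0.14 with median-ratio scaling (adjusted p = 0.5431) and -0.34 without both replicate 3 libraries (adjusted p = 0.0589).

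FAD2 (AT3G12120, chromosome 3, 3860251 to 3863250, minus strand, 2 exons) encodes the desaturase that turns oleic into linoleic acid on phosphatidylcholine. It stood at 1378, 1274 and 1645 TPM in scl15, at 1239, 1031 and 1086 TPM in Napin:SCL15 and at 1615, 1340 and 1543 TPM in WT. The Napin:SCL15 libraries were the lowest, below every scl15 and WT library, and the scl15 and WT ranges overlapped. FAD2 had a log2 fold change of -0.07 in scl15 over WT (adjusted p = 0.7947, 95% interval -0.37 to 0.23). FAD2 fell by 0.42 in Napin:SCL15 over WT (SE 0.14, adjusted p = 0.0427), which was 0.14 below the median of all genes. That call ended without scl15 replicate 1, Napin:SCL15 replicate 2 or 3, or WT replicate 1 or 3 (adjusted p 0.0614 to 0.1395), without both replicate 3 libraries (adjusted p = 0.0707) and with median-ratio scaling (-0.09, adjusted p = 0.8014). Between the lines the log2 fold change was -0.35 in Napin:SCL15 over scl15 (adjusted p = 0.0522). It passed without scl15 replicate 2 or Napin:SCL15 replicate 1 (adjusted p 0.0299 to 0.0485) and with quantile normalization (-0.46, adjusted p = 0.0053) or a filter at a mean of 5 TPM, and turned to 0.08 with median-ratio scaling (adjusted p = 0.7277).

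FAD3 (AT2G29980, chromosome 2, 12781524 to 12785190, minus strand, 7 or 8 exons) encodes the desaturase that turns linoleic into linolenic acid at the endoplasmic reticulum. It stood at 344, 282 and 342 TPM in scl15, at 486, 485 and 501 TPM in Napin:SCL15 and at 448, 429 and 498 TPM in WT. All scl15 libraries were below all others, and the Napin:SCL15 and WT ranges overlapped. FAD3 averaged 323 ± 35.1 TPM in scl15, against 458 ± 35.7 TPM in WT (SD, n = 3 each). The log2 fold change was -0.51 (SE 0.12, adjusted p = 0.0093). After the median of all genes was subtracted this was -0.61, and the call held in all 19 alternatives. Napin:SCL15 averaged 491 ± 8.87 TPM, which was 0.10 above WT on the log2 scale (SE 0.12, adjusted p = 0.5465). With median-ratio scaling that value was 0.43 (adjusted p = 0.0479). Between the lines FAD3 rose by 0.61 in Napin:SCL15 (SE 0.12, adjusted p = 9.4e-04), 0.98 above the median of all genes, and by 1.04 with median-ratio scaling (adjusted p = 2.2e-05).

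**Figure D3:**
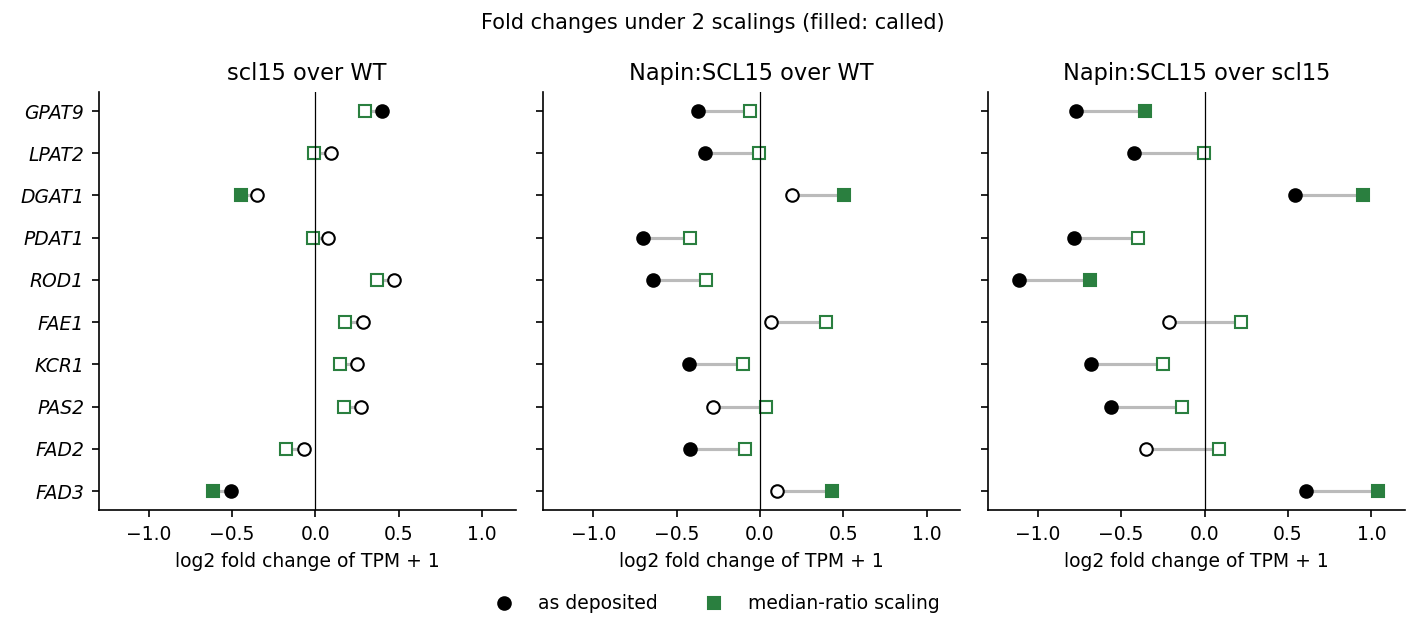
Log2 fold changes of the 10 genes (rows) in the 3 comparisons, with TPM as deposited (circles) and after median-ratio scaling (squares); filled symbols were called and grey lines join the values of a gene. All values of Napin:SCL15 over scl15 move to the right with the scaling, and ROD1, GPAT9, DGAT1 and FAD3 are the genes filled in both.

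Markers of other tissues in the silique also differed between the groups. The summed TPM of 7 silique wall and dehiscence markers ran over 507 to 758 in scl15, 513 to 613 in Napin:SCL15 and 712 to 1094 in WT. ADPG1 held most of that sum, with means of 489 TPM in scl15, 481 TPM in Napin:SCL15 and 720 TPM in WT. The mean in scl15 was above that in WT for FUL, IND and ALC, and below it for SHP1, SHP2, ADPG1 and ADPG2. None of the 7 was at 0 in any library. In scl15 over WT 1 was called higher and 2 lower, against 9.18% and 6.31% of all genes. In Napin:SCL15 over WT 4 were called lower, against 23.4% of all genes. With median-ratio scaling 0 rose and 3 fell in scl15 over WT, against 5.99% and 7.8% of all genes. All 7 did not pass in Napin:SCL15 over WT with that scaling, against 3.26% of all genes higher and 3.59% lower. The 6 seed coat markers summed to 331 to 356 TPM in scl15, 219 to 238 TPM in Napin:SCL15 and 303 to 343 TPM in WT, with 0 to 3 of them at 0 in a library. BAN, TT12 and AHA10 of these lay below the level filter, and the other 3 did not pass in scl15 over WT. Those other 3 were all called lower in Napin:SCL15 over WT, against 23.4% of all genes, although all 3 did not pass there with median-ratio scaling. The MUM2 call also ended without any 1 Napin:SCL15 library or WT replicate 2 or 3 (adjusted p 0.0594 to 0.1231), and the MUM4 call without Napin:SCL15 replicate 2 or WT replicate 1 or 3 (adjusted p 0.0556 to 0.0926). The 5 endosperm markers summed to 3039 to 3108 TPM in scl15, 3763 to 8029 TPM in Napin:SCL15 and 3776 to 6271 TPM in WT, with 0 to 1 at 0 in a library, and the 4 tested did not pass in either line over WT. EPR1 made up nearly all of that sum, with means of 3039 TPM in scl15, 5487 TPM in Napin:SCL15 and 4667 TPM in WT. ZOU, ICE1, FWA and PHE1 instead had their highest mean in scl15, from 0.326 TPM (FWA) to 22.6 TPM (ICE1). Of the 8 embryo markers, all 8 did not pass in scl15 over WT. In Napin:SCL15 over WT 1, CRA1, was called higher (adjusted p = 0.0497), against 1.68% of all genes. The CRA1 call ended without any 1 library other than scl15 replicate 2 (adjusted p 0.0543 to 0.1319). With median-ratio scaling 3 embryo markers were called higher in Napin:SCL15 over WT, against 3.26% of all genes. Between the lines, in Napin:SCL15 over scl15, 5 embryo markers were called higher, 3 of 3 seed coat markers lower, 1 endosperm marker higher and 2 lower, and 2 silique wall markers higher and 3 lower. Of all genes, 6.16% were called higher there and 43.1% lower. With median-ratio scaling the marker counts were 5 embryo markers higher, all 3 seed coat markers not past, 1 endosperm marker higher, and 2 silique wall markers higher and 3 lower. The shares of all genes were then 13.3% higher and 14.5% lower. Their part in the results on oil genes was not tested. In whole siliques, fewer cells of a type and less RNA per cell cannot be told apart.

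The ratio of transcripts within a library is not changed when the library is scaled by a common factor. Of 5 ratios compared in 3 pairs of groups, FAD3 to FAD2 separated all 3 groups. It was 0.250, 0.222 and 0.208 in scl15, 0.392, 0.470 and 0.461 in Napin:SCL15 and 0.277, 0.320 and 0.323 in WT. The scl15 libraries were the lowest and the Napin:SCL15 libraries the highest, with no overlap. The ratio averaged 0.226 ± 0.0211 in scl15 and 0.441 ± 0.0426 in Napin:SCL15, against 0.307 ± 0.0256 in WT (SD, n = 3 each). On the means of the log2 ratios, used for every fold of a ratio here, it was 0.737-fold WT in scl15 and 1.44-fold WT in Napin:SCL15. Relative to scl15 it was 1.95-fold in Napin:SCL15. Each of these comparisons gave p = 0.1 in an exact two-sided permutation test, the smallest that 3 against 3 libraries allow, and 0.1667 after Benjamini-Hochberg adjustment over 15 comparisons.

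DGAT1 to PDAT1, the enzymes that draw on different acyl donors for the last step, was 1.63, 1.25 and 1.23 in scl15, 3.30, 3.60 and 4.49 in Napin:SCL15 and 1.98, 1.56 and 2.09 in WT. Every Napin:SCL15 library was above every other library, and scl15 and WT overlapped. The mean ratio was 1.37 ± 0.225 in scl15 and 3.80 ± 0.621 in Napin:SCL15, against 1.88 ± 0.279 in WT (SD, n = 3 each). The ratio in Napin:SCL15 was 2.02-fold that in WT and 2.77-fold that in scl15 (exact permutation p = 0.1 for each), and for scl15 against WT the exact permutation p was 0.2.

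FAE1 to KCR1 was 2.19, 2.18 and 2.66 in scl15, 3.26, 3.27 and 3.19 in Napin:SCL15 and 2.61, 1.94 and 2.36 in WT. All Napin:SCL15 libraries lay above all others. The ratio there was 1.42-fold that in WT and 1.39-fold that in scl15 (exact permutation p = 0.1 for each), although FAE1 itself passed in no comparison. ROD1 to FAD2 averaged 0.0335 ± 0.00675 in scl15 and 0.0191 ± 0.00160 in Napin:SCL15, against 0.0227 ± 0.00291 in WT (SD, n = 3 each). In scl15 it was 1.47-fold that in WT without overlap (exact permutation p = 0.1), and the Napin:SCL15 and WT libraries overlapped (exact permutation p = 0.2). PAS2 to KCR1, successive enzymes of the elongation cycle, averaged 0.413 ± 0.0549 in scl15, 0.448 ± 0.0748 in Napin:SCL15 and 0.404 ± 0.0257 in WT (SD, n = 3 each), with overlap in every pair of groups.

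**Figure D4:**
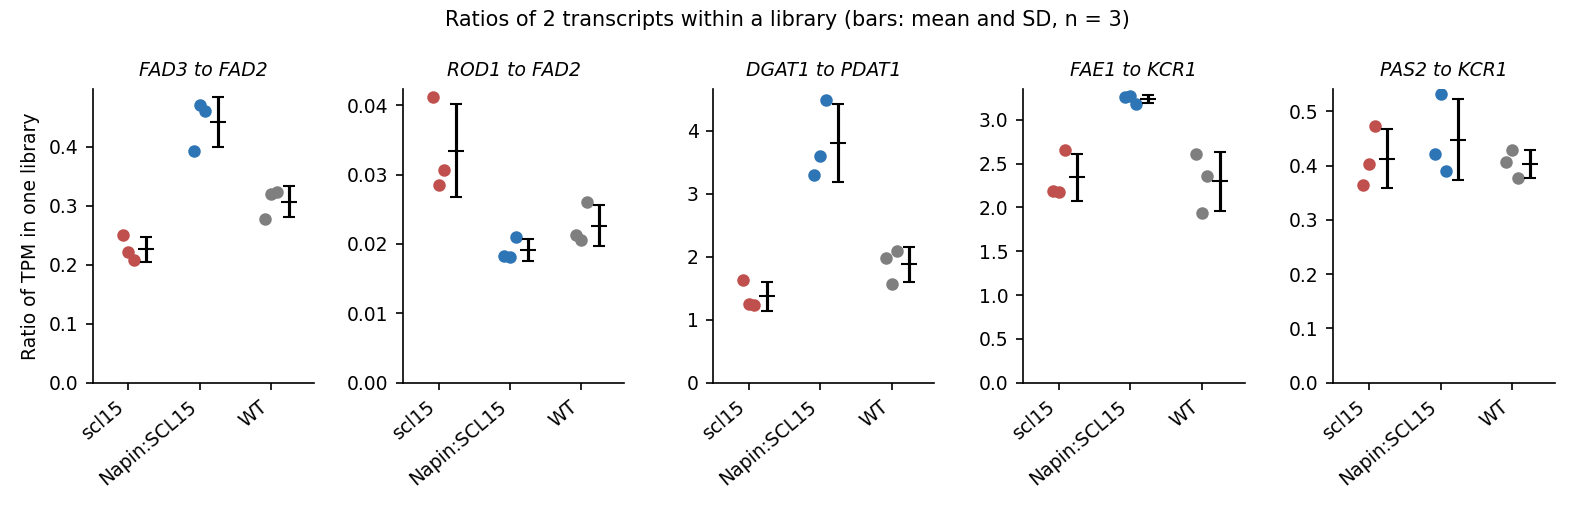
Ratios of TPM of 2 genes within a library in scl15, Napin:SCL15 and WT; points are the 3 libraries of a group and bars are the mean and SD. FAD3 to FAD2 averages 0.226 in scl15, 0.441 in Napin:SCL15 and 0.307 in WT, while PAS2 to KCR1 overlaps in all 3 groups.

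FAD3 also took up a different share of the 10 transcripts. Of their summed TPM, FAD3 made up 14.2% ± 0.903 in scl15 and 24.7% ± 1.71 in Napin:SCL15, against 19.2% ± 1.27 in WT (SD, n = 3 each). FAD2 made up 63.0% ± 1.87 in scl15 and 56.0% ± 1.61 in Napin:SCL15, against 62.7% ± 1.56 in WT. ROD1 made up 2.10% ± 0.359 in scl15, 1.07% ± 0.0834 in Napin:SCL15 and 1.42% ± 0.150 in WT. These shares add to a fixed total, so they are not independent of each other.

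Over the 9 libraries, the genes whose log2(TPM + 1) correlated best with 4 of the oil genes were found among 7173 tested genes averaging at least 10 TPM. The libraries fall into 3 groups and share the scaling of TPM, so Pearson's r is given as a description. For FAE1 these were PME59 (r = 0.977), AT2G05790 (r = 0.971) and RKL1 (r = 0.970), annotated as a pectin methylesterase family member, a glycosyl hydrolase and a receptor-like kinase. For FAD2 they were SBT1.6 (r = 0.963), MVD1 (r = 0.962) and EXPA4 (r = 0.961), annotated as a subtilisin-like protease, a mevalonate diphosphate decarboxylase and an expansin. For FAD3 they were SDR3C (r = 0.965), AT2G19320 (r = 0.961) and LBD40 (r = 0.958), of which LBD40 is annotated as a LOB domain protein. For DGAT1 they were ERD2A (r = 0.975), AT2G47115 (r = 0.949) and AT5G24130 (r = 0.939), of which ERD2A is annotated as a receptor that retains proteins in the endoplasmic reticulum. Among the oil genes themselves, ROD1 and KCR1 had the highest r over the 9 libraries (0.990) and GPAT9 and DGAT1 the lowest (-0.89).

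Of 19 other oil assembly genes, 16 were tested, and in scl15 over WT 1 rose, 1 fell and 14 did not pass, with a median log2 fold change of -0.18. Of all genes, 9.18% were called higher there and 6.31% lower. DGAT3, which encodes a soluble diacylglycerol acyltransferase, averaged 443 TPM in scl15 and 297 TPM in WT (log2 fold change 0.58, adjusted p = 0.0054), and that call held in all 19 alternatives. PDAT2, the relative of PDAT1 expressed in seeds, averaged 2.49 TPM in scl15 and 4.87 TPM in WT (-0.75, adjusted p = 0.0267), a call that ended without scl15 replicate 2 or 3 or WT replicate 2 or 3 (adjusted p 0.0569 to 0.1218) and without both replicate 3 libraries (adjusted p = 0.0939). The list had 1 rise, 1 fall and 14 genes that did not pass in Napin:SCL15 over WT (median -0.22), against 1.68% of all genes higher and 23.4% lower. There DGAT3 averaged 205 TPM in Napin:SCL15, against 297 TPM in WT (-0.54, adjusted p = 0.0080; -0.21 and adjusted p = 0.3226 with median-ratio scaling). PDAT2 averaged 7.79 TPM in Napin:SCL15, against 4.87 TPM in WT (0.61, adjusted p = 0.0476), and the call ended without any 1 Napin:SCL15 library or WT replicate 1 or 3 (adjusted p 0.0727 to 0.1728) and without both replicate 3 libraries (adjusted p = 0.0648). PDAT2 rose by 1.36 in Napin:SCL15 over scl15 (adjusted p = 1.6e-04) and DGAT3 fell by 1.12 (adjusted p = 9.9e-06), and both calls held in all 19 alternatives.

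Of 15 other elongation genes, 14 were tested. In scl15 over WT 2 rose, 2 fell and 10 did not pass (median -0.05), against 9.18% of all genes higher and 6.31% lower. KCS6, the condensing enzyme of wax synthesis, averaged 228 TPM in scl15 and 157 TPM in WT (0.55, adjusted p = 0.0207), a call that ended without scl15 replicate 1 or 3 or WT replicate 2 (adjusted p 0.0618 to 0.0929), without both replicate 3 libraries (adjusted p = 0.0512) and with median-ratio scaling (0.45, adjusted p = 0.0587). KCS9 averaged 14.96 TPM in scl15 and 21.6 TPM in WT (-0.51, adjusted p = 0.0190), which ended without scl15 replicate 3 or WT replicate 1 (adjusted p 0.0835 to 0.0970) and without both replicate 3 libraries (adjusted p = 0.0712). Of the 14, 4 fell and 10 did not pass in Napin:SCL15 over WT (median -0.25), against 23.4% of all genes that fell there. With median-ratio scaling 1 rose, 1 fell and 12 did not pass (median 0.07), against 3.26% of all genes higher and 3.59% lower. KCS19 fell by 0.94 (adjusted p = 0.0033) and KCS6 by 0.69 (adjusted p = 0.0054). With median-ratio scaling KCS19 still fell, by 0.69 (adjusted p = 0.0353), and KCS6 had -0.37 (adjusted p = 0.1630). Between the lines 2 of 14 rose and 5 fell in Napin:SCL15, against 6.16% and 43.1% of all genes. With median-ratio scaling 2 rose and 1 fell, against 13.3% and 14.5% of all genes. KCS4 was higher by 0.75 (adjusted p = 0.0021) and KCS6 lower by 1.25 (adjusted p = 1.7e-05).

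All 19 other desaturation genes were tested, which include plastid desaturases and the cytochrome b5 proteins that pass electrons to FAD2 and FAD3. In scl15 over WT 3 rose, 2 fell and 14 did not pass (median 0.15), against 9.18% of all genes higher and 6.31% lower. AAD3, a plastid acyl carrier protein desaturase, averaged 28.1 TPM in scl15 and 16.3 TPM in WT (0.75, adjusted p = 0.0021), and the call held in all 19 alternatives. The cytochrome b5 gene CB5-C averaged 85.4 TPM in scl15 and 142 TPM in WT (-0.77, adjusted p = 0.0114), a call that ended without scl15 replicate 1 or 3 (adjusted p 0.0523 to 0.0576). In Napin:SCL15 over WT 1 rose, 8 fell and 10 did not pass (median -0.38), against 1.68% of all genes higher and 23.4% lower. With median-ratio scaling 3 rose, 0 fell and 16 did not pass, against 3.26% of all genes higher and 3.59% lower. The plastid desaturases FAD4 and FAD7 fell by 0.74 (adjusted p = 0.0038) and 0.71 (adjusted p = 0.0026), and with median-ratio scaling had -0.43 and -0.40 (adjusted p = 0.1081 and 0.0779). Between the lines 14 of 19 fell and 1 rose in Napin:SCL15 (median -0.66), against 43.1% and 6.16% of all genes (median -0.38). With median-ratio scaling 3 fell and 3 rose, against 14.5% and 13.3% of all genes. FAD5 was lower by 1.18 (adjusted p = 7.1e-05), FAD6 by 0.90 (adjusted p = 2.5e-05) and FAD7 by 0.86 (adjusted p = 1.4e-04). Those 3 calls held in all 19 alternatives. FAD3 rose where these plastid desaturases fell, and so did ADS2, the 1 gene of this list called higher there (0.77, adjusted p = 7.7e-05). ADS2 fell in scl15 over WT (-0.44, adjusted p = 0.0139), as FAD3 did. That ADS2 call ended without scl15 replicate 2 or WT replicate 3 (adjusted p 0.0510 to 0.0538).

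**Figure D5:**
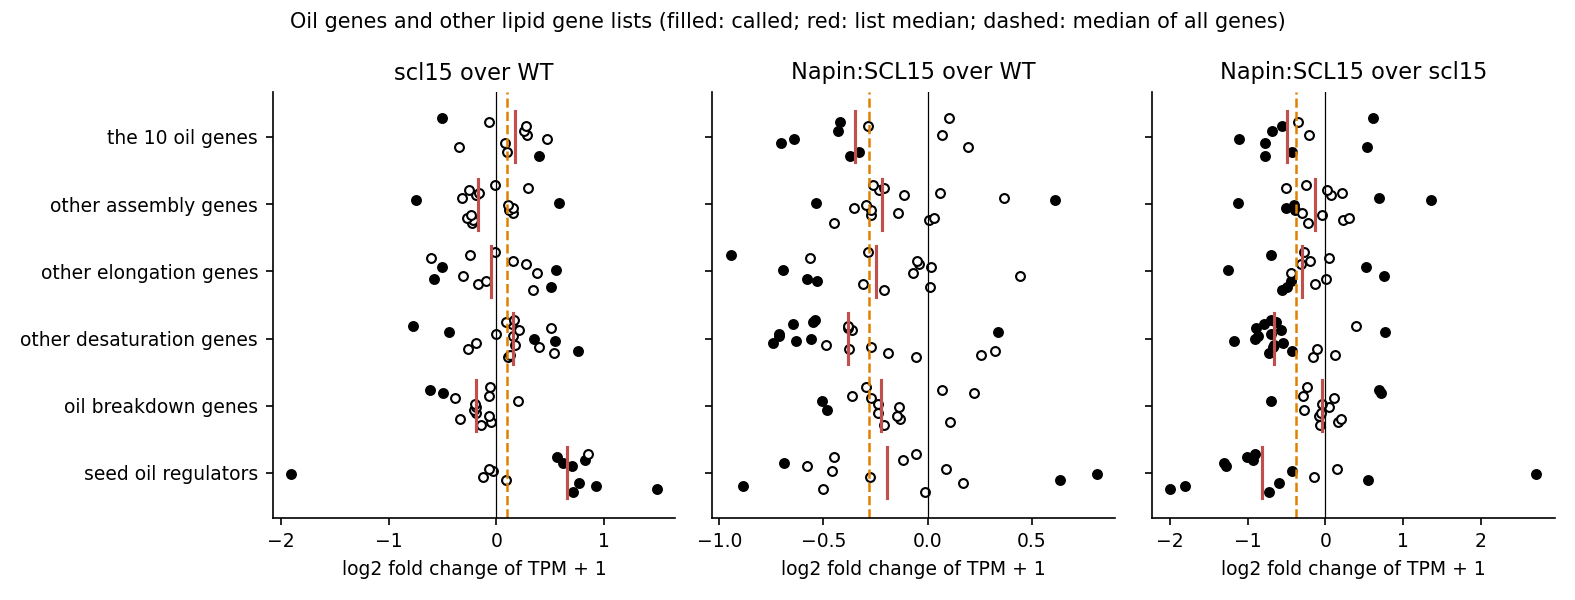
Log2 fold changes of TPM + 1 for the 10 oil genes and 5 other lists of lipid genes (rows) in the 3 comparisons, each panel with its own x axis; filled points were called, red bars are list medians and the dashed line is the median of all genes. The seed oil regulators have a median of 0.66 in scl15 over WT and -0.81 in Napin:SCL15 over scl15.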

How the data were processed

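Polyadenylated RNA of 9 silique libraries was sequenced from stranded libraries, per the labels' protocols. Per the file headers, the authors deposited 1 TPM value per gene and library. The submitters' processing notes name genome build TAIR 10. Not given in the sources used here are the aligner, counter, annotation version, use of strand and filters. Every library summed to 1000000 TPM.

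The log2(TPM + 1) values were fitted in limma 3.58.1 (R 4.3.3) with an abundance trend. All 9 libraries entered 1 fit with 6 residual degrees of freedom, and 16555 genes that averaged 1 TPM or more were tested. Genes were called at a Benjamini-Hochberg adjusted p under 0.05. Fold changes on this scale understate those of low genes. Replicate numbers met the pairing criterion in Napin:SCL15 against WT only (correlations of same-numbered deviations 0.127 to 0.179, over 0.1 in 3 of 3 pairs). The main fit and the tests of ratios did not use these numbers. The replicate block changed no call of the 10 genes in that comparison, and it called 5281 of all genes, against 4149 in the main fit. Ratios were compared by exact two-sided permutation tests. Alternatives were 3 scalings, another pseudocount, level filters, the block, library weights, fits of 2 groups and left-out libraries.

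The 10 genes and all lists were chosen with earlier results of these data known. All 10 were named. In each pathway list, up to 4 called genes with the largest change could be named, and those shown were picked among them after their values were seen. For FAE1, FAD2, FAD3 and DGAT1, the 3 genes with the highest Pearson r were named. Marker lists covered embryo, silique wall, seed coat and endosperm. Positions and upstream sequence are from RefSeq TAIR10.1, in which 27996 of the 33602 genes were found. Tables and figures were made with Python 3.11.15, pandas 2.3.3 and matplotlib 3.10.9.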

Additional observations from a re-analysis of the deposited data

How the results depend on the processing

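Of 30 results (10 genes in 3 comparisons), 16 were called, 5 of them in all 19 alternatives, and 11 lost their call in at least 1. Of the 14 not called, 9 passed in no alternative. No called fold change of the 10 genes turned its direction in a call elsewhere. In scl15 over WT, against 2 called (1 higher, 1 lower), median-ratio scaling called 0 higher and 2 lower, quantile normalization and rescaling without genes averaging 1000 TPM or more called 1 (0 higher), and leaving out replicate 3 of both lines called 1 (0 higher). The replicate block and library weights called 2 higher, and leaving out 1 library gave 1 to 2 called, 0 to 1 higher. In Napin:SCL15 over WT, against 6 lower, median-ratio scaling called 2 (2 higher, 0 lower), the other 2 scalings called 0 (2 higher and 2 lower, and 2 higher and 1 lower, at an unadjusted p under 0.05), fits of the 2 groups alone called 4, leaving out replicate 3 of both lines called 3 (4648 of all genes), and leaving out 1 library gave 1 to 5 called. In Napin:SCL15 over scl15, against 8 called (6 lower), median-ratio scaling and rescaling called 4 (2 lower) and quantile normalization 5 (3 lower); leaving out 1 library gave 8 to 9. Over all genes, higher and lower calls were 1519 and 1045 in scl15 over WT (991 and 1291 with median-ratio scaling, 1131 and 1274 with quantile normalization, 1047 and 1257 rescaled), 278 and 3871 in Napin:SCL15 over WT (539 and 594, 543 and 577, 465 and 768 under the same settings) and 1019 and 7127 in Napin:SCL15 over scl15 (2204 and 2399, 2207 and 2442, 1866 and 2791). Totals in those scalings were 1133, 1120 and 1233, against 4149, in Napin:SCL15 over WT, and 4603, 4649 and 4657, against 8146, in Napin:SCL15 over scl15. Leaving out 1 library gave totals of 1700 to 2812, against 2564, in scl15 over WT, lowest without WT replicate 1 and 1707 without scl15 replicate 1, and of 2152 to 4402 in Napin:SCL15 over WT, lowest without Napin:SCL15 replicate 2, with 2744 and 2741 without WT replicates 1 and 3. Median-ratio scaling and quantile normalization bring the median log2 fold change of all genes close to 0, and rescaling brought it to 0.03, -0.05 and -0.07 in the 3 comparisons. The cause of the other changes was not tested. In scl15 over WT and Napin:SCL15 over scl15, same-numbered libraries deviated together in 2 of 3 pairs (correlations -0.0605 to 0.35 and 0.0743 to 0.161), short of the criterion; the block called 3442 and 8863 of all genes there, with ROD1 higher and FAD2 lower in addition. Every library correlated best with its own number between Napin:SCL15 and scl15 but not between scl15 and WT. All 105 alternatives of the ratios stayed within the spread between libraries. Leaving out 1 of 3 libraries cannot move a difference by more than that spread, so those alternatives could not have counted as moved. Of the 105, 5 changed the sign of a small difference (FAE1 to KCR1 or PAS2 to KCR1). TPM keep no depth, so low values such as those of PDAT2 carry an error that cannot be computed.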

Other observations

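Genes that break oil down were described beside those that build it. All 14 oil breakdown genes were tested, and in scl15 over WT 2 fell and 12 did not pass (median log2 fold change -0.19, against 0.10 over all genes). Of all genes, 9.18% were called higher there and 6.31% lower. MLS, the malate synthase of the glyoxylate cycle, averaged 36.3 TPM in scl15 and 56.0 TPM in WT (-0.62, limma adjusted p = 0.0086), and the call held in all 19 alternatives. ICL, the isocitrate lyase of the same cycle, averaged 80.3 TPM in scl15 and 113 TPM in WT (-0.50, adjusted p = 0.0149), a call that ended without scl15 replicate 3 or WT replicate 1 or 2 (adjusted p 0.0535 to 0.0660) and without both replicate 3 libraries (adjusted p = 0.0593). In Napin:SCL15 over WT 2 of the 14 fell and 12 did not pass (median -0.22, against -0.28 over all genes). Of all genes, 1.68% were called higher there and 23.4% lower. With median-ratio scaling 1 rose and 13 did not pass, against 3.26% of all genes higher and 3.59% lower. In TPM as deposited ACX4 and ACX1, acyl-CoA oxidases of beta-oxidation, fell by 0.51 and 0.48 (adjusted p = 0.0111 and 0.0131), and with median-ratio scaling had -0.18 and -0.16 (adjusted p = 0.4610 and 0.5478). The ACX1 call also ended without WT replicate 2 (adjusted p = 0.0511). Of the 14, 2 rose, 1 fell and 11 did not pass in Napin:SCL15 over scl15 (median -0.04), against 6.16% of all genes higher and 43.1% lower. With median-ratio scaling 6 rose and 8 did not pass, against 13.3% of all genes higher and 14.5% lower. ICL rose by 0.72 (adjusted p = 4.3e-04) and MLS by 0.69 (adjusted p = 0.0014), both in all 19 alternatives. ACX4 fell by 0.70 (adjusted p = 4.8e-04), and the value was -0.27 with median-ratio scaling (adjusted p = 0.1310).

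Of 18 transcription factors known to act on seed oil genes, 14 were tested. In scl15 over WT 8 rose, 1 fell and 5 did not pass (median 0.66), against 9.18% of all genes higher and 6.31% lower. With median-ratio scaling 4 rose and 1 fell, against 5.99% of all genes higher and 7.8% lower. ABI5, a bZIP factor of abscisic acid signalling, averaged 5.39 TPM in scl15 and 22.7 TPM in WT (-1.91, adjusted p = 1.0e-05). LEC1, a CCAAT-binding subunit that promotes embryo maturation, averaged 6.32 TPM in scl15 and 1.64 TPM in WT (1.49, adjusted p = 6.3e-04), and GL2 averaged 12.3 TPM in scl15 and 6.65 TPM in WT (0.82, adjusted p = 0.0050). In Napin:SCL15 over WT 2 rose, 2 fell and 10 did not pass (median -0.20), against 1.68% of all genes higher and 23.4% lower. ABI5 was higher by 0.81 (adjusted p = 0.0069) and ABI3 by 0.63 (adjusted p = 0.0050), both in all 19 alternatives. With median-ratio scaling 2 of the list rose and 12 did not pass, against 3.26% of all genes higher and 3.59% lower. In Napin:SCL15 over scl15 2 rose and 10 fell (median -0.81), against 6.16% of all genes higher and 43.1% lower. With median-ratio scaling 3 rose and 6 fell (median -0.41), against 13.3% of all genes higher and 14.5% lower. Among these, ABI5 rose by 2.72 (adjusted p = 1.6e-07) and L1L, a relative of LEC1, fell by 1.81 (adjusted p = 3.6e-05). Whether these factors act on the 10 oil genes in these siliques was not tested.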
